A study of Mus musculus with 12 samples.

Results

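The eosinophil genes described here are 9 of the 31340 gene rows in each library: the ribonuclease genes Ear1, Ear2, Ear6, Ear10 and Ear-ps2, the granule protein genes Prg2, Prg3 and Epx, and Il5ra, the gene of the receptor that binds interleukin 5. They were picked by name, with their levels in these libraries already known, so their values are given as a description and carry no p-value. The 12 libraries are RNA-seq profiles of bone marrow cells from wild-type mice (C57BL/6 by the study's methods), labelled as hematopoietic stem cells (HSCs) and sorted by the methods as Lineage- Sca-1+ c-Kit+ Flt3- CD34- cells. There are 3 libraries in each of 4 groups: Ctrl, IR (total body irradiation with gamma rays, cells taken at day 3), Ab_IR and L_IR. By their titles Ab_IR and L_IR were irradiated too, with cells also taken at day 3, and differ from IR by something named Ab or L. What Ab and L stand for, the ages of the mice and whether a library came from 1 mouse or several are not given in the sources used here, and the shared protocol text of the labels names day 3 for Ctrl as well. The study asked how HSCs respond to radiation injury, and the comparison of IR with Ctrl addresses that question. Replicates are separate samples in the labels, but nothing says that they came from separate mice, so the spread between them may be technical.

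Eosinophils arise in the bone marrow from granulocyte progenitors under interleukin 5, whose receptor pairs a chain of its own (Il5ra) with a chain shared with interleukin 3 and GM-CSF (Csf2rb). While they mature they fill large granules with toxic cationic proteins: major basic protein (Prg2) and its relative (Prg3), the heme peroxidase Epx, and the Ear proteins, which are secreted ribonucleases of the RNase A family. The messages of these granule proteins are made mostly in immature eosinophils, and the transcription factors Gata1, Gata2, Cebpe and Spi1 are known for their part in that programme.

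The Ear genes are recent copies of each other, so a read can match more than one of them, and the sequences show how little separates the copies. By GENCODE M21 (GRCm38), Ear1 (chr14:43818765-43875517, minus strand), Ear10 (chr14:43922720-43923559, minus strand), Ear-ps2 (chr14:44046985-44047450, plus strand) and Ear2 (chr14:44102654-44103534, plus strand) lie in 1 cluster, and Ear6 (chr14:51853699-51854643, plus strand) lies farther along the same chromosome. Ear-ps2 is annotated as an unprocessed pseudogene, that is, a copy without an annotated protein, and the other 4 as protein-coding. The first 80 coding bases of each copy, or the bases aligned to them in Ear-ps2, are shown because the reading frames begin there. They lie at chr14:43819330-43819409 for Ear1, chr14:44102887-44102966 for Ear2, chr14:51853998-51854077 for Ear6, chr14:43923289-43923368 for Ear10 and chr14:44046987-44047066 for Ear-ps2. Capitals mark the 10 of 80 positions at which the copies are not all the same.
Ear1: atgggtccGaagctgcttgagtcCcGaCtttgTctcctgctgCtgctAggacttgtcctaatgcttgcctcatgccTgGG
Ear2: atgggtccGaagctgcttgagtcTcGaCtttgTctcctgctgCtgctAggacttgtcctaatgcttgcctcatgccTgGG
Ear6: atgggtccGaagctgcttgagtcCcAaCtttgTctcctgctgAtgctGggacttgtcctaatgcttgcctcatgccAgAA
Ear10: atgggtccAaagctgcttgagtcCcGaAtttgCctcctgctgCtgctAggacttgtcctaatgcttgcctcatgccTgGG
Ear-ps2: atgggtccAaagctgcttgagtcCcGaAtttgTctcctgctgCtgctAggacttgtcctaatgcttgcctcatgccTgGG
Over the whole coding part, Ear10 and Ear-ps2 were 98.3% identical, Ear2 and Ear10 97.0%, and Ear1 and Ear2 95.7%. Ear6 was 87.3% to 88.2% identical to the others. Of the 100-base windows of its transcript, Ear10 shared 24.2% with another gene of the family, Ear1 23.9%, Ear2 13.9% and Ear-ps2 11.7%, while no such window of Ear6 was shared. These shares depend on the window length. With 150 bases they were 6.81%, 5.67%, 6.32% and 0% in the same order. With 50 bases they were 39.9%, 57.4%, 41.5% and 46.3%, and 1.07% for Ear6. Levels of Ear1, Ear2, Ear10 and Ear-ps2 are therefore uncertain as single genes, Ear6 is the copy whose reads can best be told apart, and the sum of the 5 rows is given beside them.

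The stretches upstream of the Ear genes are also much alike. RefSeq promoter windows (GRCm38.p6) were at hand for 7 of the 9 genes. When the 250 bases before the start site were aligned, Ear1 and Ear2 were 99.2% identical over 248 aligned bases, and the other pairs among Ear1, Ear2, Ear6 and Ear10 92.6% to 94.3% over 227 to 247, gaps left out. A run of 57 bases was the same in all 4, and the 80 bases that begin with it are shown because the levels of these genes moved together. They lie at chr14:43819707-43819786 (minus strand) for Ear1, chr14:44102509-44102588 (plus strand) for Ear2, chr14:51853601-51853680 (plus strand) for Ear6 and chr14:43923666-43923745 (minus strand) for Ear10. Capitals mark the 8 bases at the place of a match to TTGCNNAA, a motif of C/EBP factors.
Ear1: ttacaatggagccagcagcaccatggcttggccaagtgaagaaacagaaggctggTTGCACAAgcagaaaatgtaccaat
Ear2: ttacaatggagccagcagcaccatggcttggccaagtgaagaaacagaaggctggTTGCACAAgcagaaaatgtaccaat
Ear6: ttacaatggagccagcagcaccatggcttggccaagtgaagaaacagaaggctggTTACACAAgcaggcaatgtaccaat
Ear10: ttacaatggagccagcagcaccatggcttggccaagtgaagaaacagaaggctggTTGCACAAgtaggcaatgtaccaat
The motif matched in Ear1, Ear2 and Ear10, beginning 92, 90 and 94 bases before the start, and did not match in Ear6. It matched, on either strand, in 9.56% of all 32851 promoter windows. The GATA factor core GATAA was found in Prg3, where it occurs at 2 places, and in Il5ra, and in 22.6% of all windows. The stretch of Prg3 is chr2:84988067-84988126 (plus strand), where the match reads on the opposite strand, and that of Il5ra is chr6:106749076-106749135 (minus strand), each with its matches in capitals.
Prg3: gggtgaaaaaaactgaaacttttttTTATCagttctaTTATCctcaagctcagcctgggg
Il5ra: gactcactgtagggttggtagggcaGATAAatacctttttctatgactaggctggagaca
The window of Epx (chr11:87875537-87875596, minus strand) held the TATA box letters TATAAA, 24 bases before the start, which 12.4% of windows hold. The ETS factor core AGGAAG, searched on both strands, matched in Ear1, Ear2, Ear10 and Prg3, and in 29.5% of windows. No searched motif overlapped another in these windows, and a match describes letters, not a bound site.
Epx: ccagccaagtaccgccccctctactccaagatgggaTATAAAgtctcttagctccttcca

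The deposited values carry no unit and were read as FPKM, fragments scaled to the length of the gene and to the size of the library. On that reading, levels can be compared between genes per length. The values do not give the read depth, and counting error could not be worked out. Some facts of the libraries touch every result below. Ctrl replicate 1 listed 44.1% of rows at 0, against 24.7% to 27.3% in the other 11 libraries. Nppa, a hormone of heart muscle, had 51.2 to 63.9 FPKM in the 3 IR libraries and in replicates 2 and 3 of Ctrl, and 0 to 0.26 in the other 7. Ab_IR and L_IR thus differ from IR in this respect as well as in what Ab or L stands for. The stem cell genes Mecom, Fgd5 and Hoxb5 stayed at or under 0.25 FPKM in all 12 libraries, whereas Mpo, a neutrophil granule enzyme, was at 2859 to 3432 and the antibody gene Igkc at 9409 to 24973. Cd34 and Flt3, whose proteins the gate is meant to leave out, were at 3.66 to 20.7 and 0.96 to 12.1 FPKM, beside 6.70 to 25.5 for Kit and 25.9 to 61.5 for Ly6a, the gene of Sca-1. These ranges run over all 12 libraries and so mix the groups. How HSC and progenitor markers differed between groups is given further below.

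All 9 genes were lowest in IR, next in L_IR, then in Ctrl, and highest in Ab_IR, by their group means. The step from IR to L_IR exceeded the spread in all 9, and no IR library reached any library of another group. Among all rows tested, libraries did not overlap, with IR lower, for 32.8% against Ctrl, 41.4% against Ab_IR and 43.1% against L_IR. The step from L_IR to Ctrl lay within the spread for Ear10, Ear-ps2 and Il5ra, and the step from Ctrl to Ab_IR for Ear1, Ear6 and Il5ra, where quantile normalization turned it round for Ear1 and Ear6. In bulk libraries, fewer eosinophil precursors and less message per cell cannot be told apart. Together the 9 genes made up 1.47% to 1.79% of all FPKM in Ctrl and 0.112% to 0.115% in IR. Their part was 1.79% to 1.89% in Ab_IR and 0.784% to 0.791% in L_IR.

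**Figure D1:**
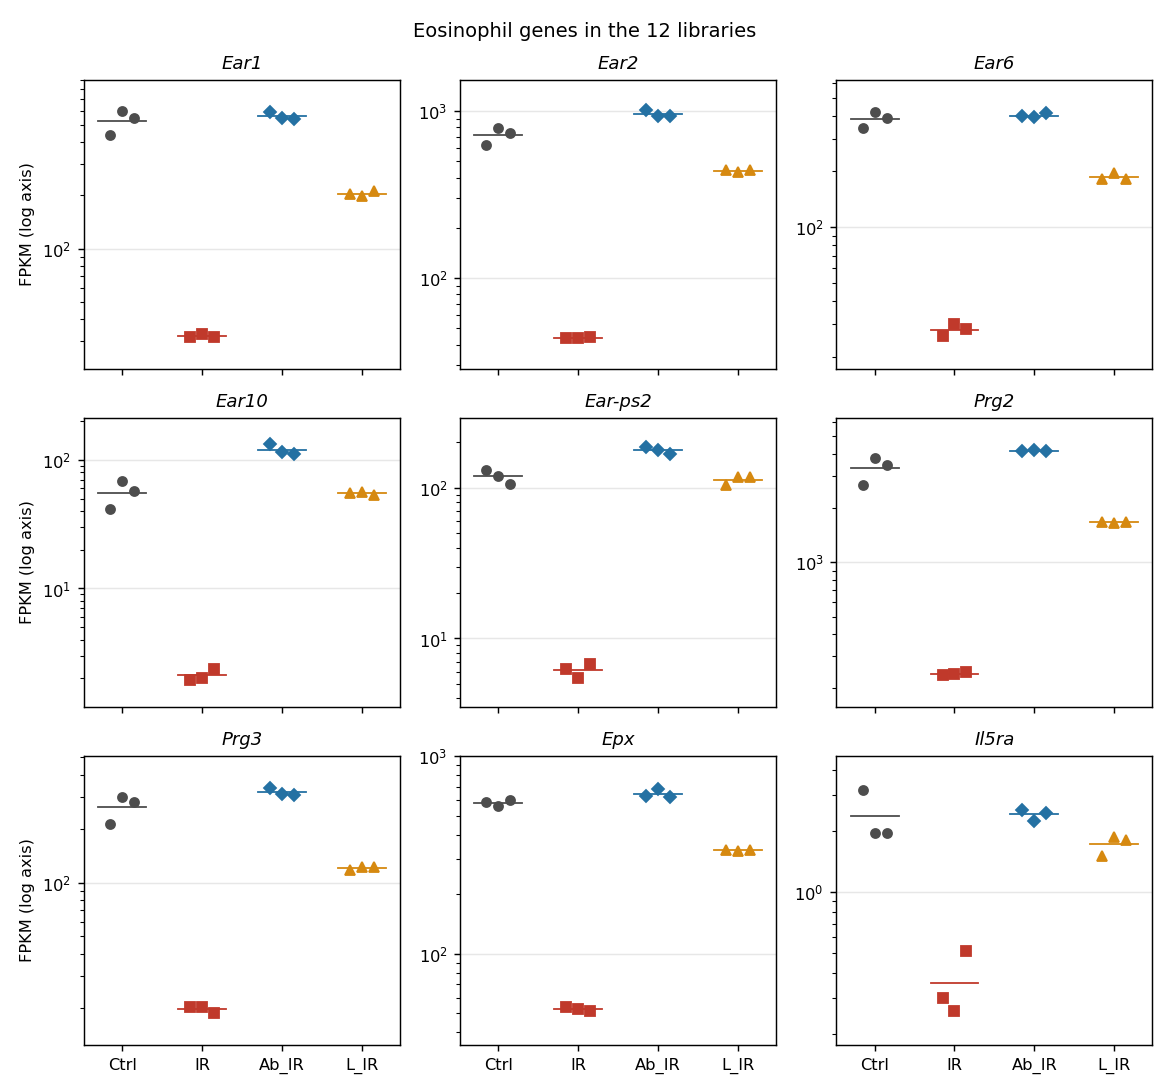
FPKM of each of the 9 genes (log axis, a scale of its own in each panel) in the 3 libraries of Ctrl, IR, Ab_IR and L_IR, with a line at the group mean. In every panel the 3 IR libraries sit below all others, and the L_IR libraries sit below Ctrl except in Ear10 and Ear-ps2, where the 2 groups overlap.

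Among the ribonucleases, Ear2 was the most abundant per length. Ear2 was at 630.81, 795.02 and 736.19 FPKM in Ctrl, 43.70, 43.54 and 44.11 in IR, 1014.77, 932.31 and 939.92 in Ab_IR, and 446.83, 434.23 and 442.39 in L_IR. Each of the 4 groups kept to a range of its own. Its mean was 16.5 times higher in Ctrl than in IR, 22 times higher in Ab_IR than in IR and 10.1 times higher in L_IR than in IR.

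Ear1 was at 436.67, 598.33 and 544.73 FPKM in Ctrl, 31.58, 33.06 and 31.84 in IR, 592.53, 545.11 and 542.15 in Ab_IR, and 203.47, 199.06 and 211.81 in L_IR. Ab_IR overlapped Ctrl, and L_IR lay at 0.389 of the Ctrl mean, the lowest such ratio of the 9 genes. The annotated span of Ear1 overlaps the pseudogene Ear-ps9 (chr14:43874875-43875537, minus strand), whose own row was at 56.3 to 96.5 FPKM in Ctrl, 5.37 to 6.28 in IR, 92.5 to 103 in Ab_IR and 34.6 to 40.1 in L_IR.

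Ear6, the copy with the fewest shared 100-base windows, was at 343.97, 417.76 and 386.12 FPKM in Ctrl, 25.67, 29.96 and 28.21 in IR, 396.44, 391.49 and 411.26 in Ab_IR, and 182.23, 196.93 and 181.48 in L_IR. Its Ab_IR libraries fell inside the range of Ctrl. The ratio of means was 13.7 for Ctrl over IR, 14.3 for Ab_IR over IR and 6.69 for L_IR over IR. In this copy IR lay below L_IR and L_IR below Ctrl with no overlap, while the step from Ctrl to Ab_IR lay within the spread.

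Ear10 was the least abundant of the 5, at 41.44, 68.14 and 57.09 FPKM in Ctrl, 1.93, 2.01 and 2.38 in IR, 132.14, 116.03 and 110.42 in Ab_IR, and 55.33, 56.44 and 53.11 in L_IR. L_IR lay within the range of Ctrl, and the 3 Ab_IR libraries lay above it. The mean in Ab_IR was 56.7 times that in IR and 2.15 times that in Ctrl. On the scale of log2(FPKM + 1) its differences from IR, 5.28 (SE 0.0808) in Ab_IR and 4.17 (SE 0.0584) in L_IR, were the largest positive ones among the 12067 and 12163 rows tested.

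Ear-ps2, the annotated pseudogene, was at 130.11, 119.64 and 106.58 FPKM in Ctrl, 6.24, 5.46 and 6.80 in IR, 187.48, 179.12 and 167.70 in Ab_IR, and 104.01, 118.15 and 117.67 in L_IR. As for Ear10, its closest relative by sequence, L_IR overlapped Ctrl and Ab_IR did not. Ear-ps2 was 18.4 times higher in L_IR than in IR and Ear10 26.1 times, against 6.37 times for Ear1 and 6.69 times for Ear6.

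Summed over the 5 copies, the Ear level was 1583 to 1999 FPKM in Ctrl, 109 to 114 in IR, 2164 to 2323 in Ab_IR and 992 to 1006 in L_IR. No group overlapped another. The sum was 16.1 times higher in Ctrl than in IR, 19.8 times higher in Ab_IR than in IR, 8.92 times higher in L_IR than in IR, and 2.22 times higher in Ab_IR than in L_IR. Ab_IR stood at 1.23 times and L_IR at 0.555 times the mean of Ctrl. On the log2(sum + 1) scale the difference of IR from Ctrl was -3.99 (SE 0.10), that of Ab_IR from IR 4.29 (SE 0.0387), and that of L_IR from IR 3.15 (SE 0.0208). The 3 comparisons share the IR libraries. Without Ctrl replicate 1, so that all libraries compared carried Nppa, the difference of IR from Ctrl was -4.08. With the Nppa split as a term in a fit of all 12 libraries, which rests on Ctrl replicate 1, the differences from IR were 4.57 in Ab_IR and 3.42 in L_IR.

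The makeup of the sum differed between groups. Ear10 made up 2.62% to 3.41% of it in Ctrl and 1.76% to 2.10% in IR, but 5.09% to 5.69% in Ab_IR and 5.28% to 5.62% in L_IR. Ear1 made up 27.6% to 29.9% in Ctrl, 28.1% to 29.0% in IR, 25.0% to 25.5% in Ab_IR and 19.8% to 21.0% in L_IR. Ear-ps2 made up 10.5% to 11.8% in L_IR and at most 8.28% in any other library. The share of Ear2 ranged from 38.2% to 45.0% over the 12 libraries. How much of these shares comes from the splitting of reads between near-identical copies was not tested.

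**Figure D2:**
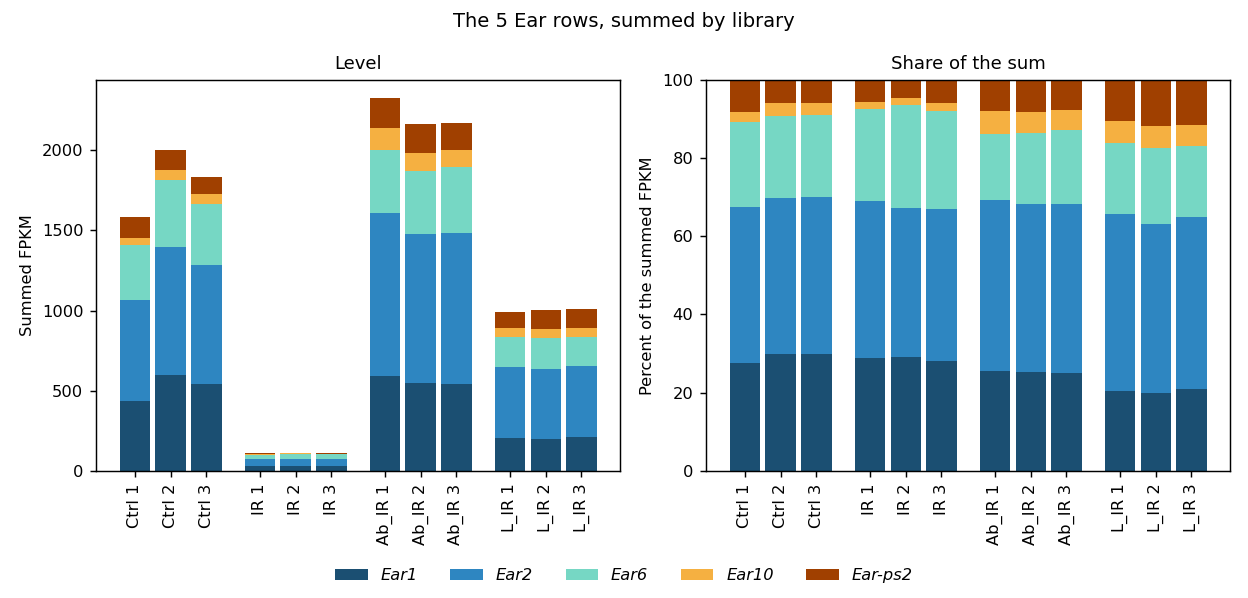
FPKM of the 5 Ear rows stacked in each library (left, bars from 0) and each row's percent of that sum (right). The IR bars reach 109 to 114 FPKM, and Ear10 and Ear-ps2 take a larger part of the bar in L_IR than in IR.

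Among the granule proteins, Prg2, the core protein of the eosinophil granule crystal, was one of the highest rows of the whole table. It was at 2672.95, 3821.86 and 3478.30 FPKM in Ctrl, 236.44, 238.31 and 246.16 in IR, 4141.79, 4229.70 and 4156.18 in Ab_IR, and 1669.16, 1656.16 and 1676.11 in L_IR. The 4 groups did not overlap, and the spread in Ctrl, with an SD of 590 FPKM, was more than 10 times that of any other group. By mean level Prg2 ranked 7 among all rows in Ctrl and 5 in Ab_IR, against 213 in IR and 24 in L_IR.

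Prg3, its neighbour on chromosome 2 (chr2:84988215-84993886, beside Prg2 at chr2:84980461-84983632, both on the plus strand), was at 210.74, 299.86 and 282.47 FPKM in Ctrl, 20.26, 20.31 and 18.67 in IR, 338.59, 311.88 and 307.27 in Ab_IR, and 117.34, 121.61 and 122.47 in L_IR. The ratio of Prg2 to Prg3 stayed between 11.7 and 14.2 in all 12 libraries while the level of each ranged more than 10-fold. Both genes were lowest in IR, and both were lower in L_IR than in Ctrl, at 0.501 of the Ctrl mean for Prg2 and 0.456 for Prg3.

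Epx, eosinophil peroxidase, was at 584.75, 558.29 and 603.22 FPKM in Ctrl, 53.77, 52.61 and 51.13 in IR, 628.92, 678.40 and 618.04 in Ab_IR, and 336.58, 330.43 and 336.87 in L_IR. Its Ctrl libraries were the tightest among the abundant genes, and its groups did not overlap. Epx lies on chromosome 11 (chr11:87864000-87875536, minus strand) near 2 other heme peroxidases, the neutrophil gene Mpo (chr11:87793581-87804413, plus strand) and the secretory gland gene Lpo (chr11:87806428-87828289, minus strand). For Mpo, limma gave a log2 difference of 0.02 (SE 0.104, adjusted p = 0.894) for IR against Ctrl. The ratio of Epx to Mpo was 0.170 to 0.195 in Ctrl, 0.0163 to 0.0167 in IR, 0.201 to 0.209 in Ab_IR and 0.104 to 0.108 in L_IR. Lpo stayed between 0.56 and 1.76 FPKM.

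Il5ra, the receptor chain specific to interleukin 5 (chr6:106710357-106749037, minus strand), was low throughout, at 3.19, 1.95 and 1.96 FPKM in Ctrl, 0.30, 0.26 and 0.51 in IR, 2.54, 2.25 and 2.46 in Ab_IR, and 1.51, 1.87 and 1.81 in L_IR. Every IR library was under 1 FPKM and every other library over it. Its fold differences from IR, 6.64 for Ctrl, 6.78 for Ab_IR and 4.85 for L_IR, were the smallest of the 9 genes, and because of the added 1 they are smaller still on the log2 scale.

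On the log2(FPKM + 1) scale, all 9 genes were tested in each comparison, since each reached 1 FPKM in 3 or more of the 6 libraries compared, the filter set on low values. Il5ra passed the filter against IR only through the group in which it was higher, and so had to differ there. A row was called where limma gave an adjusted p under 0.05 (Benjamini-Hochberg, over all rows) and the log2 difference was beyond 1 in size. For IR against Ctrl, all 9 genes were called lower in IR, as were 4.57% of the rows tested, and their median log2 difference was -3.77 against -0.05 for all rows. For Ab_IR against IR, all 9 were called higher in Ab_IR, as were 5.11% of rows, with a median of 4.08 against 0.06, and the call of Il5ra (1.34, SE 0.0849) was lost, at 0.83, with the Nppa split as a term. For L_IR against IR, all 9 were called higher in L_IR, as were 4.09% of rows, with a median of 2.70 against 0.07. The genes were chosen on these very contrasts, so nothing is read from these counts. Il5ra stood just inside the limit for L_IR against IR, at 1.01 (SE 0.0929), and passed to the other side of it, at 0.96 to 0.99, when IR replicate 1, IR replicate 2, L_IR replicate 2 or L_IR replicate 3 was left out. It also lost the call at 0.99 after scaling by the median log2 ratio, at 0.85 after quantile normalization and at 0.51 with the Nppa split as a term.

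Between Ab_IR and L_IR, both irradiated by their titles, 6 of the 9 genes were called higher in Ab_IR, as were 0.295% of the 12194 rows tested. The 6 were Ear1 (1.45, SE 0.0474), Prg3 (1.40, SE 0.0462), Prg2 (1.32, SE 0.0358), Ear2 (1.12, SE 0.0436), Ear10 (1.10, SE 0.0671) and Ear6 (1.09, SE 0.0443). Epx at 0.94 (SE 0.0440), Ear-ps2 at 0.65 (SE 0.0638) and Il5ra at 0.33 (SE 0.0721) stayed inside the limit. In none of the 9 did the libraries of Ab_IR and L_IR overlap, which was so, with Ab_IR higher, for 25.2% of all rows.

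Against Ctrl, 8 of the 9 genes were lower in L_IR and all 9 higher in Ab_IR on the log2 scale, in part within their spread. In L_IR, 7 of the 9 genes lay wholly below Ctrl, as did 18.4% of all rows. Ear1 (-1.35, SE 0.124), Prg3 (-1.11, SE 0.137) and Ear6 (-1.03, SE 0.0924) were called lower, 3 of the 9 genes, as were 0.620% of the 12251 rows tested. Ear10 (0.01, SE 0.172) and Ear-ps2 (-0.07, SE 0.0974) were at the level of Ctrl within their spread. The count of genes called ranged from 2 without Ctrl replicate 2 to 4 without Ctrl replicate 1. With the Nppa split as a term 1 was called, Ear1 at -1.09, while Ear6 stood at -0.88 and Prg3 at -0.80. In Ab_IR, Ear10 was the 1 gene called higher than in Ctrl (1.12, SE 0.181), as were 0.692% of the 12134 rows tested, and it was not called when any library other than Ctrl replicate 2 was left out. The other 8 genes differed from Ctrl by 0.04 to 0.58, and 6 of the 9 had Ab_IR libraries wholly above those of Ctrl, as did 16.0% of all rows.

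**Figure D3:**
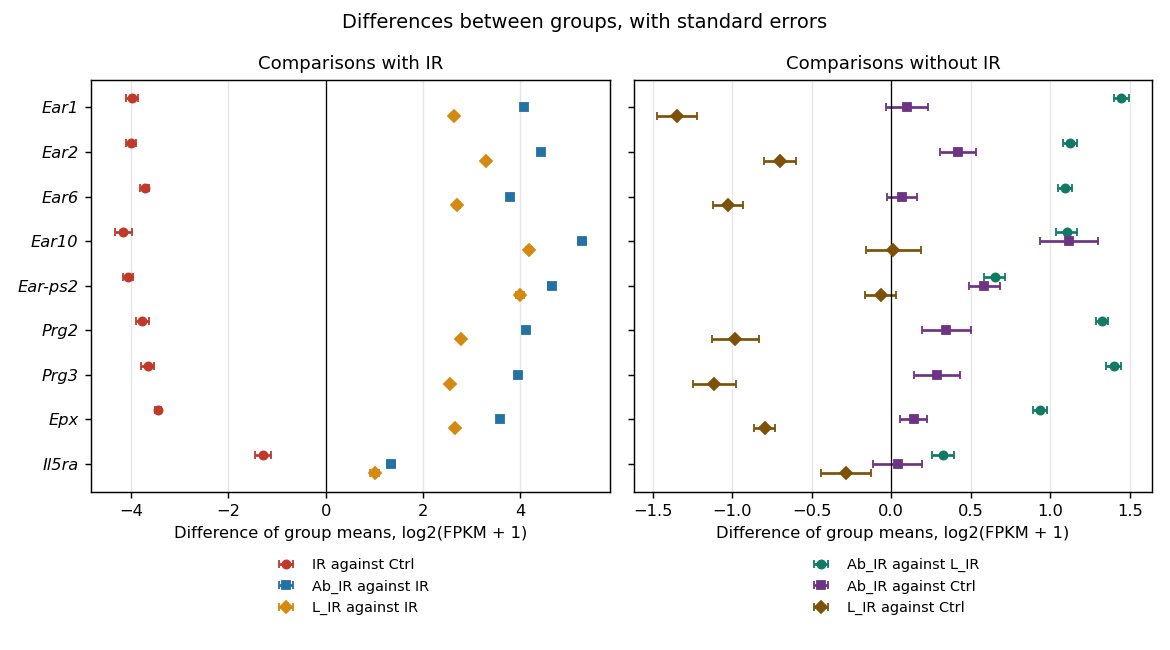
Differences of group means on the log2(FPKM + 1) scale for the 9 genes, with bars for the limma standard error. The left panel gives the 3 comparisons with IR, from -4.16 to 5.28, and the right panel, on a narrower axis, the 3 among the other groups, from -1.35 to 1.45.

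Beyond the 9 genes, 68 others were listed by role, and 56 of them had a row under their name in the files. The lists hold genes of the eosinophil programme and also genes that are not particular to it, such as Mpo, Lpo and the wider RNase A family. In the comparisons with IR, 39 of them passed the filter. For IR against Ctrl, 11 fell and 3 rose by limma, of 39, beside 7.60% of all rows called. For Ab_IR against IR, 11 rose and 3 fell, beside 7.57% of all rows. For L_IR against IR, 8 rose and 1 fell, beside 6.22% of all rows. The counts for IR against Ctrl and Ab_IR against IR include Rnase12, which passed the filter only through the group in which it was higher and so had to differ there. The latter count also includes Ccr3, at 0.76, 0.87 and 1.27 FPKM in IR, which needed the Ab_IR libraries to pass. The lists were drawn up with earlier results of these data known, so the counts are no independent evidence of a direction.

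Among the transcription factors, the erythroid and eosinophil factor Gata1 was at 36.8 to 38.8 FPKM in Ctrl, 6.0 to 7.04 in IR, 39.4 to 42.1 in Ab_IR and 25.0 to 26.1 in L_IR. It fell in IR against Ctrl (-2.39, SE 0.0733, limma adjusted p = 8.69e-06) and rose in Ab_IR and in L_IR against IR. Gata2, a progenitor, mast cell and eosinophil factor, fell likewise (-1.51, SE 0.0718, limma adjusted p = 3.57e-05), as did Zfpm1, the Gata1 cofactor (-1.74), and Irf8, a monocyte and eosinophil lineage factor (-1.60). All 4 of these factors rose in Ab_IR and in L_IR against IR. Spi1, the myeloid factor PU.1, rose in IR (1.03, SE 0.10, limma adjusted p = 0.000501), though by 0.94 and inside the limit without Ctrl replicate 2, and Xbp1, the factor of the secretory pathway that eosinophils need, rose too (1.37, SE 0.0825, limma adjusted p = 7.86e-05). Cebpe, a factor of granule formation in neutrophils and eosinophils, was at 51.0 to 86.8 FPKM in Ctrl and 121 to 126 in IR, with a log2 difference of 0.79 (SE 0.194, limma adjusted p = 0.0178) that did not reach the size limit. The direction of Cebpe, Spi1 and Xbp1 was thus opposite to that of Gata1, Gata2 and the 9 genes.

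Among the receptors and surface proteins, Siglecf, the sialic acid receptor that marks mouse eosinophils, was at 14.1 to 14.5 FPKM in Ctrl, 4.24 to 4.68 in IR, 13.3 to 14.6 in Ab_IR and 9.59 to 10.3 in L_IR. It fell in IR (-1.5, SE 0.0628, limma adjusted p = 2.67e-05). Its call in L_IR against IR (1.0, SE 0.0464) was lost, at 0.97 to 0.99, without IR replicate 1, IR replicate 2 or L_IR replicate 1. Il1rl1, the interleukin 33 receptor of eosinophils, basophils and mast cells (-1.26), Adgre1, the F4/80 antigen of macrophages and eosinophils (-1.28), and the glycoprotein gene Cd24a (-1.06) fell as well. Ccr3, the eotaxin receptor, was at 2.66 to 3.14 FPKM in Ctrl, 0.76 to 1.27 in IR, 3.16 to 4.17 in Ab_IR and 2.45 to 2.90 in L_IR, and its rise in Ab_IR against IR was called (1.2, SE 0.123, limma adjusted p = 0.000102). Its differences of -0.96 for IR against Ctrl and 0.90 for L_IR against IR did not reach the size limit. Csf2rb, the chain that Il5ra needs to signal, went the other way: it was at 22 to 26.5 FPKM in Ctrl, 75.1 to 75.4 in IR, 23.0 to 24.5 in Ab_IR and 25.1 to 25.7 in L_IR, and it rose in IR by 1.62 (SE 0.0787, limma adjusted p = 3.84e-05). Of the 8 genes of signalling below the receptor, 1 was called in 1 comparison: Stat3 fell in Ab_IR against IR (-1.01, SE 0.0410, limma adjusted p = 1.21e-06), and it stood at -0.986 to -0.997, inside the limit, without IR replicate 2, Ab_IR replicate 1 or Ab_IR replicate 2. The ligand gene Il5 was at 0 to 0.31 FPKM, and no ligand passed the filter.

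Among the products and relatives, Alox15, the lipoxygenase of eosinophils and macrophages, was at 103 to 116 FPKM in Ctrl, 7.45 to 7.55 in IR, 129 to 143 in Ab_IR and 77.6 to 82.5 in L_IR. It fell by 3.71 on the log2 scale in IR against Ctrl (SE 0.0664, limma adjusted p = 2.47e-06), a difference of the size seen for Prg2 and Prg3. Of the wider RNase A family, Rnase12 was at 8.15 to 9.40 FPKM in Ctrl, 0.44 to 0.63 in IR, 3.50 to 6.87 in Ab_IR and 1.41 to 2.30 in L_IR. It was the 1 listed gene called between Ab_IR and L_IR (1.08, SE 0.205, limma adjusted p = 0.00621), beside 0.533% of all rows, and that call was lost without Ab_IR replicate 1 or L_IR replicate 3. Rnase12 was also the 1 gene called between L_IR and Ctrl, where it fell by 1.75 (SE 0.129, limma adjusted p = 0.000545), beside 2.65% of all rows. Rnase6, an antimicrobial ribonuclease, fell in IR (-1.29) and rose in Ab_IR (1.47) and L_IR (1.27) against IR. Rnh1, the inhibitor that binds ribonucleases in the cytosol, was at 22.4 to 36.5 FPKM over the 12 libraries and was not called in any comparison. Between Ab_IR and Ctrl, 0 of 40 listed genes were called by limma, beside 0.923% of all rows, and 10 had an unadjusted p under 0.05, as did 20.9% of the 12134 rows tested.

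**Figure D4:**
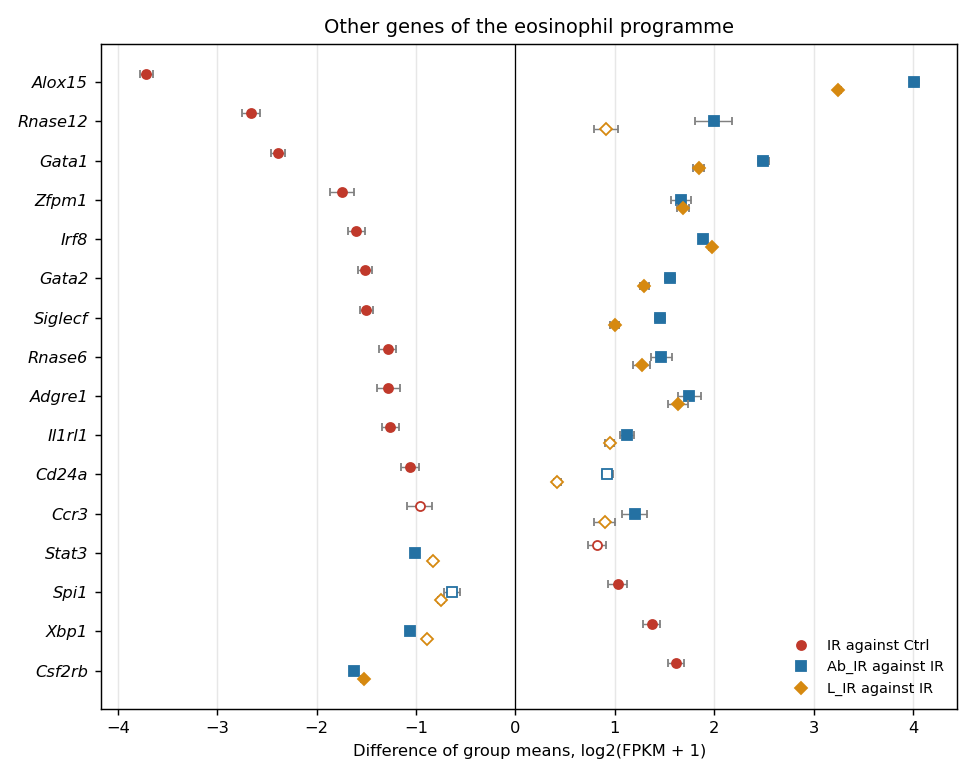
Differences of group means on the log2(FPKM + 1) scale, with the limma standard error, for the listed genes called in at least 1 of the 3 comparisons with IR, where filled points are called and open points are not. Alox15 lies farthest out, at -3.71, 4.01 and 3.25, and Csf2rb, Xbp1, Spi1 and Stat3 lie on the opposite side of 0 from the rest.

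A search of all named rows for the level pattern most like the Ear sum gave Prg2, Alox15, Prg3 and Epx as the nearest 4. The measure was the root mean square difference between the 2 centred log2(FPKM + 1) profiles over the 12 libraries, which share 4 group means, and it was computed for 11178 rows without the Ear family. Prg2 was at 0.138, Alox15 at 0.204, Prg3 at 0.220 and Epx at 0.282, where the median row was at 1.69. The next were Dntt (0.436), the DNA polymerase of early lymphoid cells, the water channel Aqp1 (0.448), Aldh1a7 (0.474), the red cell carbonic anhydrase Car1 (0.504), the amino acid transporter Slc38a5 (0.586) and Rhd (0.606), a red cell membrane protein. For the sum of Prg2, Prg3 and Epx, the nearest were Alox15 (0.252), Dntt (0.321), Aldh1a7 (0.397), Aqp1 (0.401) and Car1 (0.421).

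Markers of other cell types moved with the eosinophil genes. The 5 eosinophil markers outside the 9 genes summed to 125 to 139 FPKM in Ctrl, 14.1 to 15.0 in IR, 150 to 165 in Ab_IR and 93.8 to 98.9 in L_IR, mostly through Alox15, while Ptgdr2, a receptor of mature eosinophils, was at 0.01 to 0.32. The 11 markers of mast cells and basophils summed to 607 to 690 FPKM in Ctrl, 223 to 231 in IR, 803 to 855 in Ab_IR and 504 to 528 in L_IR. In 7 of those 11 all IR libraries lay under all Ctrl libraries, as in 32.8% of all rows tested, among them the basophil proteases Prss34 and Mcpt8, the highest of the 11 by Ctrl mean, and the IgE receptor chain Ms4a2, whose ratio of Ctrl to IR means, 7.55, was the highest of the 7, while the mast cell proteases Cma1 and Tpsb2 were at 0 to 1.28 and 0 to 0.18. Beside that same 32.8%, all 8 erythroid markers were lower in every IR library than in any Ctrl library, and their sum was 2266 to 2774 FPKM in Ctrl, 407 to 418 in IR, 2399 to 2596 in Ab_IR and 1294 to 1337 in L_IR. All 6 bone and stroma markers, beside 32.8% of rows, were lower in every IR library as well, with sums of 163 to 203 FPKM in Ctrl, 10.1 to 10.9 in IR, 51.0 to 57.0 in Ab_IR and 49.6 to 51.7 in L_IR. Of these 6, 5 were among the rows tested, and 1 stayed under 1 FPKM in all 12 libraries. In any of these lists, a marker that passed the filter only through Ctrl had to differ there.

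Neutrophil markers differed in direction from the eosinophil genes in the comparisons with IR, but not between L_IR and either Ab_IR or Ctrl. Against IR, 5 of the 13 were called lower and 1 higher in Ab_IR (median log2 difference -0.55), beside 7.57% of all rows called. In L_IR against IR, 8 were called lower and 0 higher (median -2.33), beside 6.22% of all rows called. Of 13, 8 were higher and 1 lower in every IR library than in any Ctrl library, where 25.2% of all rows lay wholly higher and 32.8% wholly lower in IR, and their sum was 10985 to 12848 FPKM in Ctrl, 16540 to 16812 in IR, 12074 to 12658 in Ab_IR and 8853 to 9063 in L_IR. For Ab_IR against L_IR, 6 of the 13 were called higher in Ab_IR and 0 lower (median log2 difference 0.93, beside 0.01 for all rows), and for L_IR against Ctrl 7 were called lower and 0 higher (median -1.01, beside 0.00028), as were 0.295% and 0.620% of all rows in these directions. The summed Ear level stood in IR at 6.22% of its Ctrl mean, the granule sum at 7.49%, the eosinophil markers outside the 9 genes at 10.8%, erythroid markers at 16.0%, platelet lineage markers at 21.4%, mast cell and basophil markers at 34.7%, monocyte markers at 58.2%, and bone and stroma markers at 5.67%. Markers of macrophages stood at 75.8%, of T cells at 55.6%, of HSCs and progenitors at 78.4%, of neutrophils at 138%, and of B and plasma cells at 158%. Of the 11 HSC and progenitor markers, 5 lay wholly lower and 1 wholly higher in IR than in Ctrl, beside 32.8% and 25.2% of rows. Of the 6 tested, 3 were called lower and 0 higher in IR (median log2 difference -1.30), beside 4.57% of rows called lower. Against IR, 3 were called higher and 0 lower in Ab_IR, and likewise in L_IR, beside 5.11% and 4.09% of rows called higher. In L_IR the erythroid markers stood at 50.9% and the eosinophil markers outside the 9 genes at 72.5% of Ctrl, with the neutrophil markers at 74.3%, the platelet lineage markers at 135%, the T cell markers at 155% and the B and plasma cell markers at 231%. In Ab_IR the platelet lineage markers stood at 215% of Ctrl. Rare cells of other types in the sort, RNA of other cells and a change within the sorted cells were not tested as sources of these values. Ctrl replicate 1, the Ctrl library without Nppa, lay within or below the range of Ctrl replicates 2 and 3 in Ear1, Ear2, Ear6, Ear10, Prg2, Prg3 and Epx and above it in Ear-ps2 and Il5ra, and in all 9 genes it lay above every IR library.

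**Figure D5:**
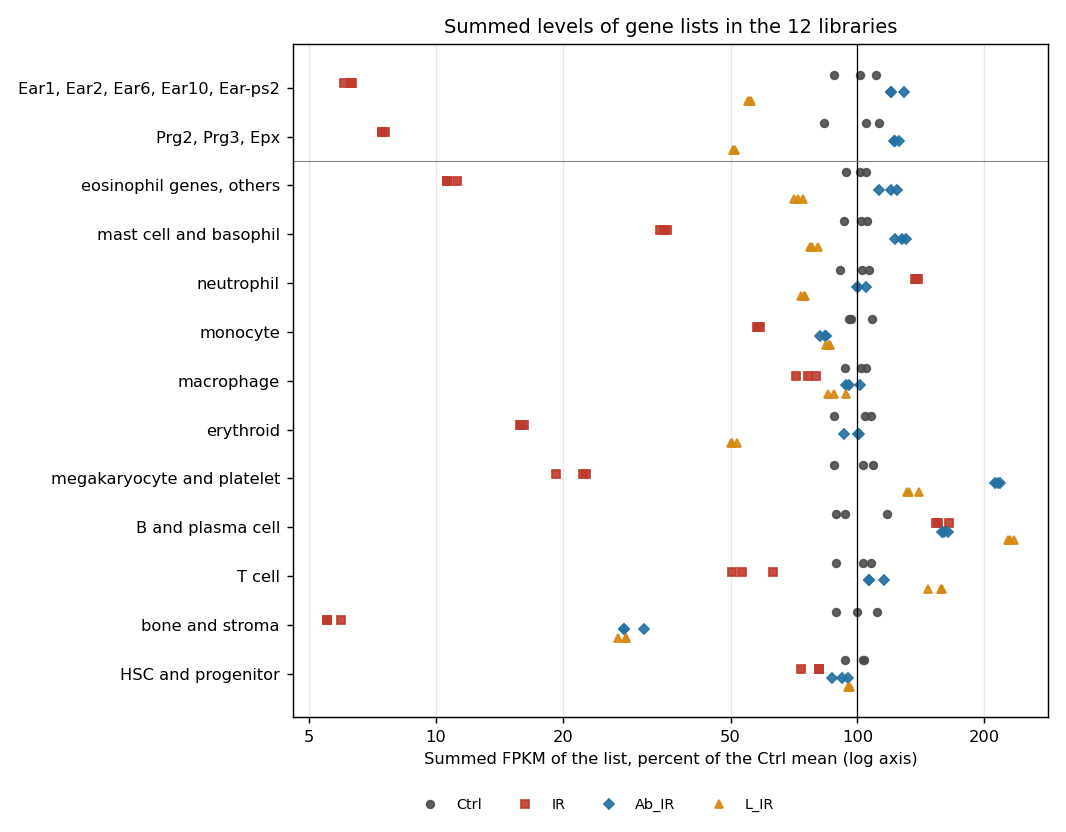
Summed FPKM of each gene list in each of the 12 libraries, as a percent of the mean of the 3 Ctrl libraries (log axis), with the Ear and granule genes above the line and the marker lists of cell types below it. In IR the Ear, granule, bone and stroma, other eosinophil and erythroid lists lie between 5 and 20%, and the neutrophil and B cell lists lie above 100%.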

How the data were processed

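The 12 deposited tables, 1 for each library, list gene names with 1 value each, at 2 decimals. The unit is not named in the files, and the values were read as FPKM as the authors computed them. Per the labels, libraries were stranded poly(A) libraries and the processing notes name fastp, HISAT2 and StringTie with the builds GRCm38 and mm10, whereas the methods name fastp and RSEM with DESeq2. Which tool made the FPKM values was not settled. The methods' count test was not run, since counts were not at hand.

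Groups came from the titles. For each of 6 pairs of groups, log2(FPKM + 1) was fitted with limma 3.58.1 in R 4.3.3 (trend in the prior variance, 6 libraries) over all rows that reached 1 FPKM in 3 or more of these libraries, with Benjamini-Hochberg adjustment over all rows tested. The Ear rows were also summed before taking logs. The 9 genes and all gene lists were chosen with earlier results of these data known. Named genes were the 9, the listed genes that were called, listed genes with a defining role, and the rows nearest in pattern. The fits were tested on simulated data. The alternatives were another pseudocount, no filter, quantile and median scaling, all 12 libraries in 1 fit with and without the Nppa split as a term, a replicate block, each library left out, and every row of the Ear family summed. Motifs were searched in the 250 bases before RefSeq starts, and coding identity was computed from pairwise alignments (Biopython 1.88) of GENCODE M21 transcripts. Depth is unknown, so precision rests on the spread of 3 libraries.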

Additional observations from a re-analysis of the deposited data

How the results depend on the processing

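No called difference of the 9 genes and no difference of the Ear sum changed direction under any alternative run, while uncalled differences from Ctrl changed sign under at least 1 alternative for Ear1, Ear6 and Il5ra in Ab_IR and for Ear10 and Ear-ps2 in L_IR. With a pseudocount of 0.1, 1512 rows were called for Ab_IR against IR, 1294 for L_IR against IR and 165 for Ab_IR against L_IR, in place of 914, 756 and 65. With all 12 libraries and the Nppa split as a term, the counts were 1960 for Ab_IR against IR, 1554 for L_IR against IR, 811 for Ab_IR against Ctrl and 876 for L_IR against Ctrl, the Ear sum differed by 4.57, 3.42, 0.49 and -0.66 in the same order, and 1 of the 9 genes was called for L_IR against Ctrl. Quantile normalization gave Ear sum differences of 4.24 for Ab_IR against IR, 0.10 for Ab_IR against Ctrl and -0.99 for L_IR against Ctrl. For L_IR against IR, median scaling gave 3.10 and summing every row of the family 3.12. For Ab_IR against Ctrl, 73 rows were called without a filter, and 0 of the 9 genes without a filter, with quantile normalization or with the replicate block. The cause of these moves was not tested.

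Leaving out 1 library gave 60 to 123 rows, 0 to 1 of the 9 genes for Ab_IR against Ctrl, and 0 to 1 listed genes for Ab_IR against L_IR. The Ear sum differences then ranged from -4.08 to -3.91 for IR against Ctrl, 4.26 to 4.31 for Ab_IR against IR, 3.13 to 3.16 for L_IR against IR, 1.11 to 1.17 for Ab_IR against L_IR, 0.21 to 0.38 for Ab_IR against Ctrl and -0.93 to -0.77 for L_IR against Ctrl. Same-numbered libraries deviated together by a correlation of -0.27 to 0.208 over genes. With 3 libraries in a group, such values cannot show whether the numbers pair the samples, and pairing is not known. With the replicate block, the counts were 928, 914, 756, 66, 92 and 294 rows for the 6 comparisons. Each group holds the same replicate numbers, so the block cannot move a difference of group means. The Ear sum differences were therefore those of the fit without it. Nor can dropping the filter or fitting all 12 libraries without the Nppa term move them.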
